A study of Mus musculus with 22 samples.

Results

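The genes described here are 10 members of the interleukin-1 (IL-1) system in mouse microglia: the ligands Il1a, Il1b and Il18, the soluble antagonists Il1rn and Il18bp, the receptors Il1r1, Il1rap and the decoy Il1r2, and the inflammasome genes Nlrp3 and Casp1. They were taken by symbol from a table of 54532 genes. All 10 were found and all 10 passed the filter on low counts, as did 16554 genes in all.

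Microglia, the resident macrophages of the brain, had been sorted as live CD45mid, CD11b+ and CD11a- cells from the brains of old males of the strain C57BL/6J. Poly(A) RNA was sequenced in 22 libraries. Mice of the Gulf War (GW) groups, a model of Gulf War Illness, were given pyridostigmine bromide, a cholinesterase inhibitor, at 0.7 mg/kg with permethrin, an insecticide, at 200 mg/kg for 10 days from 10 weeks of age, and control (Ctrl) mice were given vehicle. All were then aged to 17.5 months. Some GW mice received cannabidiol (CBD) at 30 mg/kg daily for 28 days and then every 2 days for 2 weeks, and the others its vehicle (Veh). The last step was 1 injection of lipopolysaccharide (LPS), the endotoxin of Gram-negative bacteria, at 0.33 mg/kg, or of saline buffer (PBS), and brains were taken 24 hours later. The 6 groups are named by exposure, treatment and challenge: GW-Veh-LPS and GW-CBD-PBS had 3 libraries each, and GW-CBD-LPS, GW-Veh-PBS, Ctrl-Veh-LPS and Ctrl-Veh-PBS had 4 each. A control group given CBD was not analysed here, so CBD was compared within exposed mice only. No label ties a library to a single animal, and p-values here therefore describe spread among libraries only. The comparisons bear on how microglia of exposed mice answer a later endotoxin challenge and on what CBD does to that answer.

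IL-1α and IL-1β are cytokines that act through one receptor, made of the ligand-binding chain IL-1R1 and the accessory chain IL-1RAP, and signal through the adaptor MyD88. The system has several brakes: IL-1Ra (from Il1rn) occupies the receptor without signalling, IL-1R2 binds IL-1 but has no signalling domain, and IL-18BP captures IL-18. Precursors of IL-1β and IL-18 are cut by caspase-1, which is activated in the NLRP3 inflammasome, so transcript levels alone do not show how much active cytokine is released. In the brain, microglia are a main source of IL-1.

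Il1a and Il1b are neighbours on chromosome 2, and their promoters are printed because both ligands are abundant in these cells without LPS, and because their proximal sequences differ in a motif. Each sequence holds the 250 bases before the start of transcription, read on the minus strand, from RefSeq on GRCm38.p6. Il1a lies at chr2:129309973-129310222 and Il1b at chr2:129371140-129371389. No exon of the GENCODE M21 annotation falls in either window. Capitals mark TATAAA (the core of a TATA box) and TGANTCA (the AP-1 motif, a palindrome, so it reads as TGANTCA on both strands).
Il1a: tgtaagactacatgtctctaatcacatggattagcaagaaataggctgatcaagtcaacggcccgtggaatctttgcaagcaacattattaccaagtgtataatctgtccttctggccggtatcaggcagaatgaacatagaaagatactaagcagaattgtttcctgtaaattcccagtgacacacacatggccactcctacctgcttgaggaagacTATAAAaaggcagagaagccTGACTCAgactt
Il1b: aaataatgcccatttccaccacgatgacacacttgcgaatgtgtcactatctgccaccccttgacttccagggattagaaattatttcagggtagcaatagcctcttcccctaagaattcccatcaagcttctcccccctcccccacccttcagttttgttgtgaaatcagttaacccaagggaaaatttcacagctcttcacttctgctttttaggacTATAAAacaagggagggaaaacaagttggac
The TATAAA match begins 32 bases before the start in Il1a and 31 bases before it in Il1b. Of 32851 promoter windows of the same length, 12.4% hold TATAAA on either strand and 6.75% hold TGANTCA. Il1a has TGANTCA at 12 bases before its start, between the TATAAA match and the start, and Il1b has no such match in its window. Among the other members, 1 of the Il1rn windows holds TGANTCA at 141 bases before its start, and the Il1r2 window holds TTCNNNGAA (the GAS motif, found in 7.02% of windows) at 111 bases before its start. The search for the ISRE, the interferon-stimulated response element (in 2.98% of windows), gave no match in the windows of any member, and the NF-kB motif (7.25% of windows) matched 1 window each of Nlrp3 and Il1r1. The only Il18bp window lies inside the gene as annotated by GENCODE, with all 250 bases in exon. Bases before the annotated start of Il18bp were therefore not searched. The Il1r2 window (chr1:40085843-40086092) also lies inside its annotated gene and holds 117 exon bases, so bases before that gene's annotated start were not searched either. The Il1r1 window with the NF-kB match (chr1:40266336-40266585) lies inside its annotated gene too. These matches are letters in a sequence, and binding was not measured.

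Library totals ran from 28676930 to 40458326 counts. Summed levels of microglial marker genes were 26575 to 51766 CPM (counts as a share of the library size, which was scaled by TMM). They were lower in Ctrl-Veh-LPS (26575 to 36171) and GW-Veh-LPS (28621 to 37217) than in the groups given PBS (40610 to 51766) and in GW-CBD-LPS (43273 to 49853). Before any result, 3 libraries have to be set apart: the sum of 12 neutrophil markers was 25353 CPM in replicate 3 of Ctrl-Veh-PBS, 2523 in replicate 1 of Ctrl-Veh-LPS and 1765 in replicate 1 of GW-Veh-PBS, against 1.261 to 315.9 in the other 19, although the CD11a- gate should remove most neutrophils. Members and pathway genes whose call they change are given with and without them. Monocyte marker sums were 165.2 to 684.2 CPM in Ctrl-Veh-LPS and 177.3 to 275.1 in GW-Veh-LPS, and 88.14 to 191.8 in GW-CBD-LPS. In sorted bulk RNA, more cells of another type and more RNA per cell cannot be told apart.

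**Figure D1:**
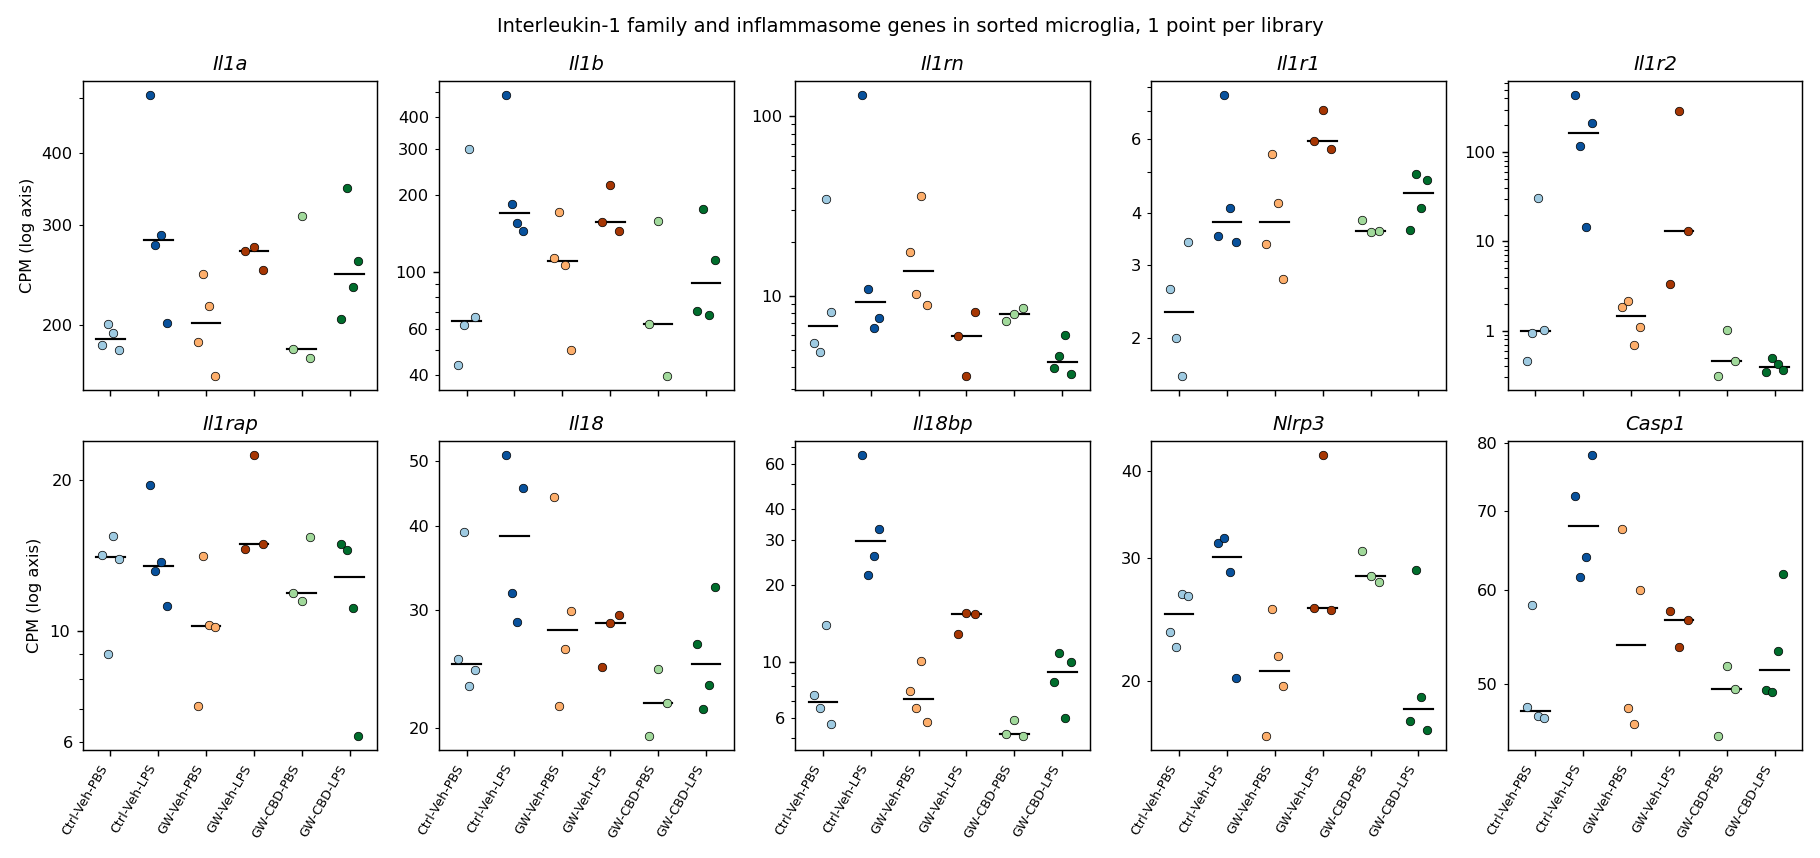
Level of each of the 10 genes in CPM (log axes) in the 6 groups, with 1 point per library and a line at each group's median. Il1r2 spans 0.31 to 436 CPM and is at most 0.494 in the GW-CBD-LPS libraries, Il18bp is highest in Ctrl-Veh-LPS, and Il1b and Il1rn each have 1 library far above the others in Ctrl-Veh-PBS and in Ctrl-Veh-LPS.

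Per length, the ligands and caspase-1 were the abundant members at rest, and the receptors the scarce ones. In Ctrl-Veh-PBS the median level was 96.2 CPM per kb of exon for Il1a, 33.9 for Il1b, 31.7 for Casp1 and 24.2 for Il18. Nlrp3 followed with 6.16 CPM per kb and Il18bp with 2.3, then Il1rap with 1.24, Il1rn with 1.23, Il1r2 with 0.516 and Il1r1 with 0.363. With LPS, the median for Il1r2 in Ctrl-Veh-LPS was 86.7 CPM per kb, near that of Il1b (88.9), while in GW-CBD-LPS it was 0.206, the lowest of the 10 members.

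In control mice given LPS, 5 of the 10 members rose and none fell. A gene is called here when its Benjamini-Hochberg adjusted p over all genes, from edgeR's quasi-likelihood test, is under 0.05. The 5 were Il18bp, Il1r2, Il1r1, Il1a and Casp1. Over all genes tested, 10.8% were called higher and 9.62% lower. All 10 members had a positive log2 fold change, with a median of 0.85 against -0.02 over all genes. In 3 members (Il1a, Il18bp and Casp1) every LPS library lay above every PBS library, which held for 12.2% of all genes (10.8% lay wholly below). In GW mice 1 member was called with LPS, Il1r2 (4.45% of all genes called higher, 5.07% lower), and the median was 0.61 against -0.04 over all genes. There 5 members lay wholly above (9.22% of all genes) and 1, Il1rn, wholly below (10.4%). In CBD-treated GW mice 0 members were called with LPS by edgeR (0.393% of all genes called higher, 0.0242% lower) or by DESeq2 (351 genes in all). There 1 member had an unadjusted p under 0.05 (11% of all genes did), and the median was 0.18 against 0.00. Il18bp lay wholly above in that comparison (8.37% of all genes) and Il1rn wholly below (5.79%).

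**Figure D2:**
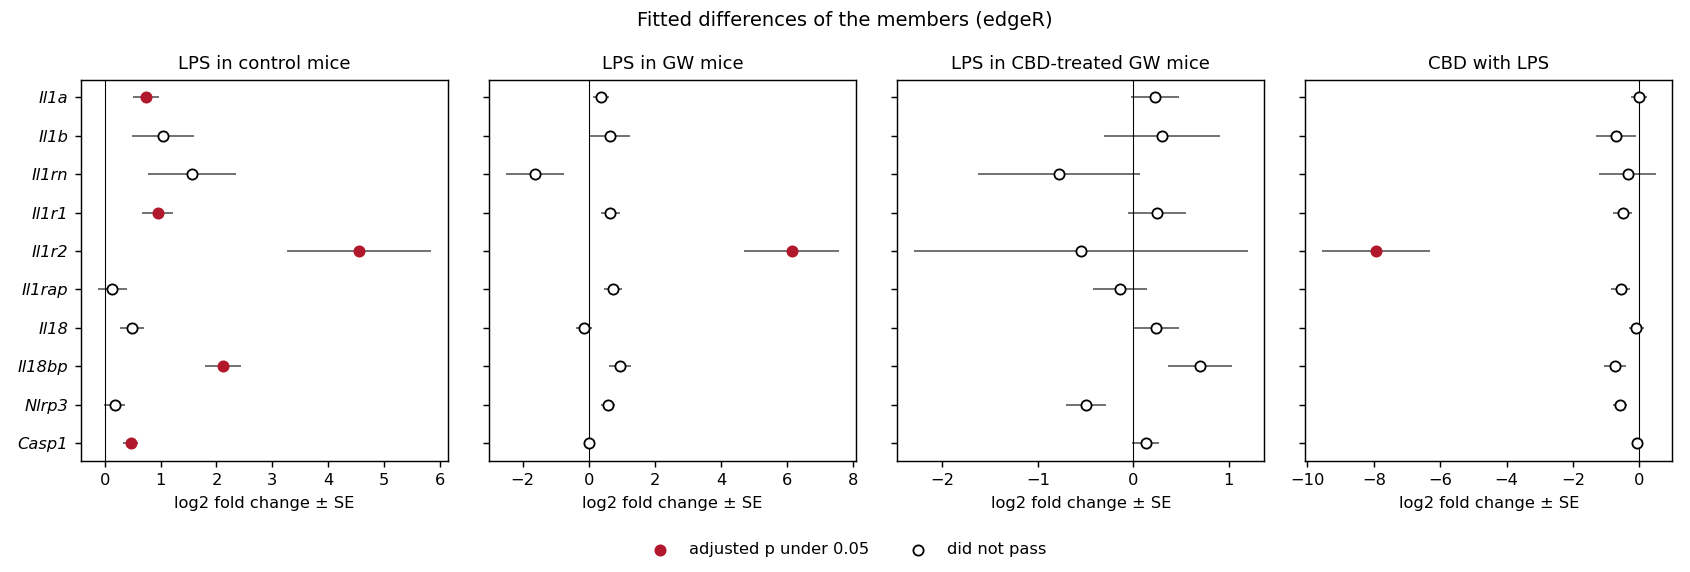
Log2 fold change with its SE for each member under LPS in the 3 kinds of mice and for CBD in mice given LPS, where filled points passed the threshold and the axes differ between panels. In control mice 5 members pass, in GW mice 1, in CBD-treated GW mice none, and Il1r2 alone passes for CBD with LPS (log2 fold change of -7.94).

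Of the ligands, Il1a, which encodes IL-1α, a cytokine active without cleavage, was the most abundant per length. It stood at 185, 201, 194 and 181 CPM in Ctrl-Veh-PBS and at 505, 276, 288 and 202 CPM in Ctrl-Veh-LPS. The LPS libraries were all above the PBS libraries, though the lowest of them (202) lay next to the highest PBS library (201). The log2 fold change was 0.74 ± 0.23 (SE, adjusted p = 0.0263, edgeR). The call rested on single libraries: it was lost in 4 of the 8 fits that each left out 1 library, those without replicates 1, 3 or 4 of Ctrl-Veh-PBS and without replicate 1 of Ctrl-Veh-LPS, the last giving 0.42 with an adjusted p of 0.164. Without the 3 libraries rich in neutrophil markers it was 0.42 (adjusted p = 0.215). In the other groups Il1a was 163 to 246 CPM in GW-Veh-PBS, 250 to 274 in GW-Veh-LPS, 175 to 310 in GW-CBD-PBS and 205 to 348 in GW-CBD-LPS. By median the groups ran from GW-CBD-PBS (182) through Ctrl-Veh-PBS (190), GW-Veh-PBS (202), GW-CBD-LPS (246) and GW-Veh-LPS (270) to Ctrl-Veh-LPS (282). Neighbours in this order overlapped in every case.

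Il1b, the ligand that needs caspase-1, was not called in any of the 9 comparisons. In Ctrl-Veh-PBS it was 43.8, 62.4, 300 and 66.9 CPM in replicates 1 to 4, and in Ctrl-Veh-LPS 487, 184, 155 and 145 CPM. Replicate 3 of Ctrl-Veh-PBS, the library with the most neutrophil markers, was above 3 of the 4 LPS libraries, so the groups overlapped through it. Its fitted log2 fold change was 1.04 ± 0.56 (adjusted p = 0.207, edgeR). Without that library it was 2.03 (adjusted p = 0.00757), and without all 3 set-apart libraries 1.47 (adjusted p = 0.0366), so in those fits Il1b passed. Without replicate 1 of Ctrl-Veh-LPS, the library at 487 CPM, it was 0.45 (adjusted p = 0.646). Of the 8 fits that each left out 1 library, 1 called Il1b. In GW mice it was 114, 171, 107 and 50 CPM with PBS and 157, 218 and 144 with LPS (log2 fold change 0.65 ± 0.60, adjusted p = 0.549). In CBD-treated mice it was 63.1, 158 and 39.5 CPM with PBS and 70.4, 176, 68.3 and 112 with LPS (log2 fold change 0.30 ± 0.61, adjusted p = 0.912). By median the order was GW-CBD-PBS (63.1), Ctrl-Veh-PBS (64.7), GW-CBD-LPS (91.1), GW-Veh-PBS (110), GW-Veh-LPS (157) and Ctrl-Veh-LPS (170), again with every neighbouring pair overlapping.

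Il18, whose product drives interferon-gamma release from lymphocytes, varied little. It was 23.1 to 39.2 CPM in Ctrl-Veh-PBS and 28.8 to 51.1 in Ctrl-Veh-LPS (log2 fold change 0.49 ± 0.22, adjusted p = 0.126, edgeR), and the groups overlapped through replicate 2 of Ctrl-Veh-PBS. Without that library Il18 passed, with 0.69 (adjusted p = 0.0365). In the GW groups it was 21.6 to 44.2 CPM with PBS, 24.7 to 29.5 with LPS, 19.5 to 24.5 with CBD and PBS, and 21.4 to 32.4 with CBD and LPS. Of the 6 groups, Ctrl-Veh-LPS had the highest median (38.6 CPM) and GW-CBD-PBS the lowest (21.8).

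Il18bp, the gene of the soluble IL-18 antagonist, had the smallest adjusted p of the 10 members in control mice. It was 7.37, 6.57, 14 and 5.68 CPM in Ctrl-Veh-PBS and 65.2, 22, 26.1 and 33.3 CPM in Ctrl-Veh-LPS. Every LPS library was above every PBS library. The log2 fold change was 2.12 ± 0.32 (adjusted p = 7.96e-05, edgeR), and it passed under each alternative run, with 1.69 to 2.44 when single libraries were left out and 2.03 without the 3 set-apart libraries. In GW mice Il18bp was 7.65, 6.58, 10.1 and 5.8 CPM with PBS and 12.8, 15.6 and 15.4 with LPS. These groups did not overlap either, with a log2 fold change of 0.95 ± 0.33 (adjusted p = 0.0706). DESeq2 (0.94, adjusted p = 0.0355), the fit of the compared groups alone (0.96, adjusted p = 0.0459) and the fit without the 3 libraries (0.94, adjusted p = 0.0179) called it. With CBD it was 5.21, 5.89 and 5.12 CPM under PBS and 8.31, 10.8, 5.99 and 9.96 under LPS, again without overlap (log2 fold change 0.70 ± 0.34, adjusted p = 0.458).

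Under LPS the 3 kinds of mice fell into separate ranges for Il18bp: 22 to 65.2 CPM in Ctrl-Veh-LPS, 12.8 to 15.6 in GW-Veh-LPS and 5.99 to 10.8 in GW-CBD-LPS. For CBD with LPS 6.33% of all genes lay wholly below in this way. For exposure with LPS that share is not given here, so the separation has no background to be read against. Neither difference passed in edgeR. The difference between GW-Veh-LPS and Ctrl-Veh-LPS was -1.33 ± 0.34 on the log2 scale (adjusted p = 0.184, edgeR), and DESeq2 called it (-1.32, adjusted p = 0.0145). It was -0.90 (adjusted p = 0.37) without the 3 set-apart libraries. The difference between GW-CBD-LPS and GW-Veh-LPS was -0.73 ± 0.33 (adjusted p = 0.296). Both differences use the same 3 GW-Veh-LPS libraries. The test of whether LPS acted differently on Il18bp in GW than in control mice gave -1.17 ± 0.45 (adjusted p = 0.354), so a difference in response was not shown. Of the exons of Il18bp, 2.64% of bases overlap those of Numa1 on the opposite strand, and the strand setting of the counting is not given in the sources used here.

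Il1rn, the gene of the IL-1 receptor antagonist, was not called in any comparison. In Ctrl-Veh-PBS it was 5.45, 4.86, 34.5 and 8.14 CPM, and in Ctrl-Veh-LPS 131, 10.9, 6.58 and 7.48. The high values were those of the libraries with the most neutrophil markers in each group, and the other libraries overlapped. Fitting gave a log2 fold change of 1.56 ± 0.79 (adjusted p = 0.171, edgeR). Without the 3 set-apart libraries it was 0.42 (adjusted p = 0.558). It turned to -0.67 (adjusted p = 0.471) without replicate 1 of Ctrl-Veh-LPS, and was 2.60 (adjusted p = 0.0314) without replicate 3 of Ctrl-Veh-PBS. In GW mice Il1rn was 17.4, 10.2, 36 and 8.9 CPM with PBS and 5.98, 3.56 and 8.07 with LPS. All 3 LPS libraries were below all PBS libraries. The log2 fold change was -1.63 ± 0.88 (adjusted p = 0.267), and -1.66 (adjusted p = 0.0241) without the 3 set-apart libraries, of which replicate 1 of GW-Veh-PBS is one. Of the 7 fits that each left out 1 library, 0 called it. It was -1.05 (adjusted p = 0.523) without replicate 3 of GW-Veh-PBS, the library at 36 CPM, whose neutrophil marker sum was 47.48 CPM. With CBD Il1rn was 7.21, 7.92 and 8.53 CPM under PBS and 3.96, 4.6, 6.05 and 3.67 under LPS, also without overlap. The difference between GW-Veh-LPS and Ctrl-Veh-LPS, -2.73 ± 0.92 (adjusted p = 0.31), came mostly from 1 library: it was -0.51 (adjusted p = 0.812) without replicate 1 of Ctrl-Veh-LPS.

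Il1r2, the decoy receptor, had the largest fold change of the 10 members in each of the 3 comparisons that called it. It lies beside Il1r1 on chromosome 1 and is known as a gene of neutrophils and of macrophages under anti-inflammatory signals. In Ctrl-Veh-PBS it was 0.457, 0.935, 30.7 and 1.03 CPM (15 to 1065 counts), and in Ctrl-Veh-LPS 436, 117, 14.6 and 214 CPM (553 to 12417 counts). Only replicate 3 of Ctrl-Veh-PBS reached the range of the LPS libraries. The group means were 8.29 ± 15 (SD, n = 4) and 195 ± 180 (SD, n = 4) CPM. On the log2 scale the fitted difference was 4.56 ± 1.29 (adjusted p = 0.0157, edgeR). It was 7.85 (adjusted p = 0.000476) without replicate 3 of Ctrl-Veh-PBS and 7.12 (adjusted p = 0.00138) without the 3 set-apart libraries, and it missed the threshold without replicate 1 of Ctrl-Veh-LPS (3.80, adjusted p = 0.0501) and in the fit of the compared groups alone (4.50, adjusted p = 0.0548).

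In GW mice Il1r2 was 1.83, 2.14, 0.699 and 1.09 CPM with PBS and 3.37, 287 and 13 CPM with LPS. The 3 LPS libraries were all above the PBS libraries but spanned 132 to 9994 counts. The log2 fold change was 6.13 ± 1.45 (adjusted p = 0.011, edgeR). Without replicate 3 of GW-Veh-LPS, the library at 287 CPM, it was 2.51 (adjusted p = 0.243). In CBD-treated mice Il1r2 stayed at the bottom of the series with LPS: 0.31, 1.02 and 0.463 CPM with PBS and 0.344, 0.494, 0.424 and 0.363 CPM with LPS, from 10 to 19 counts per library. The 2 groups overlapped, and the log2 fold change was -0.55 ± 1.75 (adjusted p = 0.951).

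Between mice given LPS, Il1r2 fell with CBD: all 4 GW-CBD-LPS libraries lay below the 3 GW-Veh-LPS libraries. For this difference the log2 fold change was -7.94 ± 1.62 (adjusted p = 0.0103, edgeR). It was the only member called in that comparison, in which 1.06% of all genes were called higher and 1.24% lower. The size rested on replicate 3 of GW-Veh-LPS, without which it was -4.31 (adjusted p = 0.206), and the threshold was also missed without replicate 1 of GW-CBD-LPS (-7.86, adjusted p = 0.0503) and with the compared groups alone (-7.92, adjusted p = 0.0582). The test of whether LPS acted differently with CBD than without gave -6.68 ± 2.21 (adjusted p = 0.197), which DESeq2 called (-6.69, adjusted p = 0.0164). Across the 6 groups the medians ran from GW-CBD-LPS (0.394 CPM), GW-CBD-PBS (0.463), Ctrl-Veh-PBS (0.985) and GW-Veh-PBS (1.46), which overlapped one with the next, to GW-Veh-LPS (13) and Ctrl-Veh-LPS (165), which overlapped each other but not, in the case of GW-Veh-LPS, the group before.

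Neutrophil and monocyte markers moved with Il1r2 in part. Among mice given LPS, the sum of the 12 neutrophil markers was 2523, 45.53, 15.43 and 65.49 CPM in Ctrl-Veh-LPS, 12.29, 203 and 46.56 CPM in GW-Veh-LPS, and 1.261, 11.02, 1.357 and 8.142 CPM in GW-CBD-LPS. Within Ctrl-Veh-LPS and within GW-Veh-LPS the libraries stood in the same order for Il1r2 and for this sum. Per CPM of marker, Il1r2 was 0.00121 to 0.0593 CPM in Ctrl-Veh-PBS and 0.173 to 3.27 in Ctrl-Veh-LPS, which did not overlap, and replicate 3 of Ctrl-Veh-PBS, with the highest marker sum of the series, had the lowest value of its group. In GW mice the same ratio was 0.00104 to 0.629 with PBS and 0.274 to 1.41 with LPS. In CBD-treated mice it was 0.00681 to 0.0229 with PBS and 0.0446 to 0.312 with LPS, also without overlap. Il1r2 itself did not rise there (log2 fold change -0.55 ± 1.75), while the marker sum was 13.54 to 150.2 CPM with PBS and 1.261 to 11.02 with LPS. A higher ratio thus need not mean more Il1r2. GW-Veh-LPS thus overlapped both GW-Veh-PBS and GW-CBD-LPS in Il1r2 per marker, although it overlapped neither in Il1r2 itself. In replicate 4 of Ctrl-Veh-LPS, where Il1r2 was 214 CPM, the marker Ly6g, a surface antigen of mouse neutrophils, had 0 counts. Of the 12 markers 3 were at 0 counts in that library, while S100a9 had 911 counts, S100a8 439 and Mmp8 214. Ly6g also had 0 counts in replicate 2 of GW-Veh-LPS and in all 4 GW-CBD-LPS libraries. It had 130 counts in replicate 1 of Ctrl-Veh-LPS, where the marker sum was 2523 CPM. In GW-CBD-LPS 7 or 8 of the 12 markers were at 0 counts, against 0 to 3 in GW-Veh-LPS. Libraries of like sums could differ in which markers made them up. In replicate 1 of Ctrl-Veh-PBS (sum 55.13 CPM) Ngp was 19.8 CPM, Ltf 9.53 and Cxcr2 0.0609. In replicate 2 of Ctrl-Veh-LPS (sum 45.53) they were 3.36, 0 and 3.14. Cxcr2 was 12, 3.14, 1.06 and 1.73 CPM in Ctrl-Veh-LPS, 0.204, 7.58 and 1.94 in GW-Veh-LPS, and 0 in all 4 GW-CBD-LPS libraries. It reached 54.4 in replicate 3 of Ctrl-Veh-PBS, where Il1r2 was 30.7. The part of these cells in the differences of Il1r2 was not tested.

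**Figure D3:**
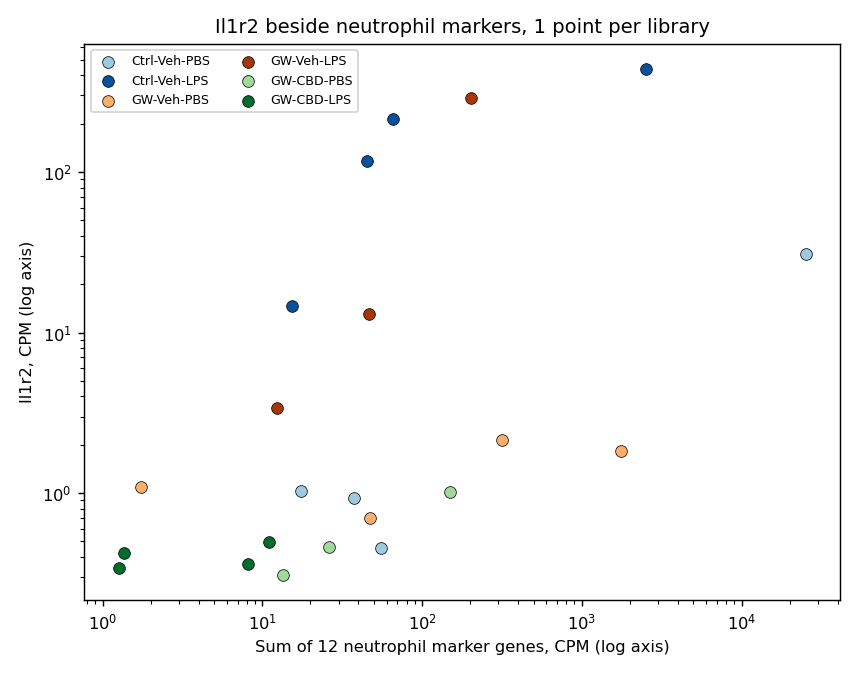
Il1r2 (CPM, log axis) against the summed level of 12 neutrophil marker genes (CPM, log axis), with 1 point per library, coloured by group. Ctrl-Veh-LPS and GW-Veh-LPS libraries lie at higher Il1r2 than PBS libraries with like marker sums, and replicate 3 of Ctrl-Veh-PBS, with the highest marker sum (25353), has 30.7 CPM of Il1r2. Like sums can differ in which markers make them up.

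Il1r1, the signalling receptor, was scarce in all groups. It was 2.62, 2, 1.62 and 3.41 CPM in Ctrl-Veh-PBS and 3.51, 7.66, 4.1 and 3.4 CPM in Ctrl-Veh-LPS, with 56 to 276 counts behind each value. The groups touched at 3.4 CPM, and replicate 2 of Ctrl-Veh-LPS stood above the rest. The log2 fold change was 0.95 ± 0.28 (adjusted p = 0.0194, edgeR). The call was lost without replicates 2 or 3 of Ctrl-Veh-PBS or replicate 2 of Ctrl-Veh-LPS (the last giving 0.61, adjusted p = 0.101), and without the 3 set-apart libraries (0.90, adjusted p = 0.0526). In GW mice Il1r1 was 3.36, 5.52, 4.22 and 2.77 CPM with PBS and 5.95, 7.06 and 5.7 with LPS, which did not overlap (log2 fold change 0.65 ± 0.29, adjusted p = 0.177). GW-CBD-LPS, at 3.64 to 4.94 CPM, lay wholly below GW-Veh-LPS.

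Il1rap, the accessory chain shared with other receptors of the family, was not called in any comparison. It was 8.98 to 15.5 CPM in Ctrl-Veh-PBS and 11.2 to 19.6 in Ctrl-Veh-LPS (log2 fold change 0.13 ± 0.26, adjusted p = 0.77, edgeR). The sign of that value changed when single libraries were left out (-0.05 to 0.23). In GW mice it was 7.08, 14.1, 10.3 and 10.2 CPM with PBS and 14.6, 22.5 and 14.9 with LPS, without overlap (log2 fold change 0.73 ± 0.28, adjusted p = 0.106). With CBD it was 11.5 to 15.4 CPM under PBS and 6.18 to 14.9 under LPS.

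Nlrp3, the sensor that assembles the inflammasome, was not called in any comparison either. In control mice it was 22.4 to 26.7 CPM with PBS and 20.2 to 32.1 with LPS (log2 fold change 0.18 ± 0.19, adjusted p = 0.543, edgeR). In GW mice it was 16.7, 25.4, 21.7 and 19.7 CPM with PBS and 25.5, 42.3 and 25.3 with LPS, and the groups met at about the same level (log2 fold change 0.57 ± 0.21, adjusted p = 0.0885). In CBD-treated mice the order was the other way, with 30.8, 28.3 and 27.8 CPM under PBS and 17.5, 28.9, 19 and 17 under LPS. All but replicate 2 of GW-CBD-LPS lay below the PBS libraries (log2 fold change -0.49 ± 0.21, adjusted p = 0.373). The difference between these LPS responses, with CBD against without, was -1.07 ± 0.30 (adjusted p = 0.132), with the smallest p of the 10 members for that interaction. DESeq2 called it (-1.05, adjusted p = 0.0317), and edgeR did so without replicate 2 of GW-CBD-LPS (adjusted p = 0.0262).

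Casp1, which encodes the protease that matures IL-1β and IL-18, rose with LPS in control mice by a small amount. It was 47.8, 58.3, 47 and 46.8 CPM in Ctrl-Veh-PBS and 72.1, 61.6, 64 and 78.2 CPM in Ctrl-Veh-LPS, without overlap. In the fit, the log2 fold change was 0.46 ± 0.13 (adjusted p = 0.0133, edgeR). It missed the threshold without replicate 3 of Ctrl-Veh-PBS or replicate 4 of Ctrl-Veh-LPS (highest adjusted p = 0.0548), and without the 3 set-apart libraries (0.40, adjusted p = 0.0654). In the GW groups Casp1 was 46.2 to 67.6 CPM with PBS and 53.7 to 57.6 with LPS, and with CBD 45.2 to 51.8 and 49.2 to 61.9. GW-Veh-LPS lay wholly below Ctrl-Veh-LPS, as for Il18bp, with a difference of -0.30 ± 0.14 (adjusted p = 0.355). The share of all genes placed in this way is not given here.

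In the edgeR fit of all libraries, GW exposure with or without LPS and CBD without LPS called no gene. Without LPS, exposure gave 0% of all genes called (621 had an unadjusted p under 0.05, and DESeq2 called 0), and 1 of the 10 members had an unadjusted p under 0.05: Il1r1, at 0.72 ± 0.28 on the log2 scale (adjusted p = 1, edgeR). With LPS, exposure also gave 0% of all genes called (2267 at an unadjusted p under 0.05, 150 called by DESeq2). Without replicate 2 or replicate 3 of Ctrl-Veh-LPS, edgeR called 30 and 75 genes there, and none of the members. There 4 members had an unadjusted p under 0.05 (13.7% of all genes did): Il1rn, Il18bp, Casp1 and Il18, the last with -0.51 ± 0.24 (adjusted p = 0.361), and all 4 values were negative. DESeq2 called 1 member in that comparison, Il18bp. CBD without LPS gave 0% of all genes called (1569 at an unadjusted p under 0.05, 4 called by DESeq2), and 1 member had an unadjusted p under 0.05: Nlrp3, at 0.47 ± 0.21 (adjusted p = 0.524), whose GW-CBD-PBS libraries lay wholly above GW-Veh-PBS. Those of Il1rn lay wholly below (7.21 to 8.53 against 8.9 to 36 CPM), at -1.20 ± 0.86 (adjusted p = 0.619, edgeR). The share of all genes without overlap is not given for that comparison. DESeq2 called 0 members for exposure without LPS and for CBD without LPS. Exposure without LPS and CBD without LPS share the GW-Veh-PBS libraries with opposite sign.

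With LPS, all 10 members had a negative log2 fold change for CBD, with a median of -0.54 against 0.01 over all genes, but 1 was called. In 3 members (Il1r2, Il1r1 and Il18bp) the GW-CBD-LPS libraries lay wholly below GW-Veh-LPS, which held for 6.33% of all genes, while 6.51% lay wholly above. Nlrp3 differed by -0.59 ± 0.21 (adjusted p = 0.157, edgeR), and by an adjusted p of 0.0373 without replicate 2 of GW-CBD-LPS.

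The interaction tests, which ask whether the LPS response itself differed, called none of the members. For exposure, 0% of all genes were called (2099 at an unadjusted p under 0.05, 60 called by DESeq2, and 13 by edgeR without replicate 3 of Ctrl-Veh-LPS), and 3 members had an unadjusted p under 0.05 (12.7% of all genes did): Il1rn at -3.19 ± 1.18 (adjusted p = 0.353), Il18bp, and Casp1 at -0.45 ± 0.19 (adjusted p = 0.364, edgeR). DESeq2 called 0 members there. For CBD, 0.0181% of all genes were called, and 3 members had an unadjusted p under 0.05 (15.3% of all genes did): Nlrp3, Il1r2, and Il1rap at -0.88 ± 0.40 (adjusted p = 0.302). DESeq2 called 2 of these, Il1r2 and Nlrp3, among 380 of the 16455 genes it tested. A response that passed in control mice and not in GW mice was therefore not shown to differ between them by edgeR.

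Ratios of a ligand to its antagonist were formed after the values were seen and are given without a test. Il18 per Il18bp, in CPM not scaled by length, was 1.65 to 5.96 in Ctrl-Veh-PBS and 0.783 to 1.44 in Ctrl-Veh-LPS, 2.59 to 5.77 in GW-Veh-PBS and 1.84 to 1.92 in GW-Veh-LPS, and 3.74 to 4.26 in GW-CBD-PBS and 1.97 to 3.87 in GW-CBD-LPS. LPS libraries were wholly lower in the first 2 pairs and overlapped in the third. Il1b per Il1rn went the other way in GW mice, from 2.97 to 16.8 with PBS to 17.9 to 61.4 with LPS. In control mice it was 8.04 to 12.9 with PBS and 3.7 to 23.6 with LPS, where the lowest value was that of replicate 1, and in CBD-treated mice 4.62 to 19.9 and 11.3 to 38.3. In replicate 3 of Ctrl-Veh-PBS both genes were high, and the ratio lay within the range of the other 3 libraries.

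**Figure D4:**
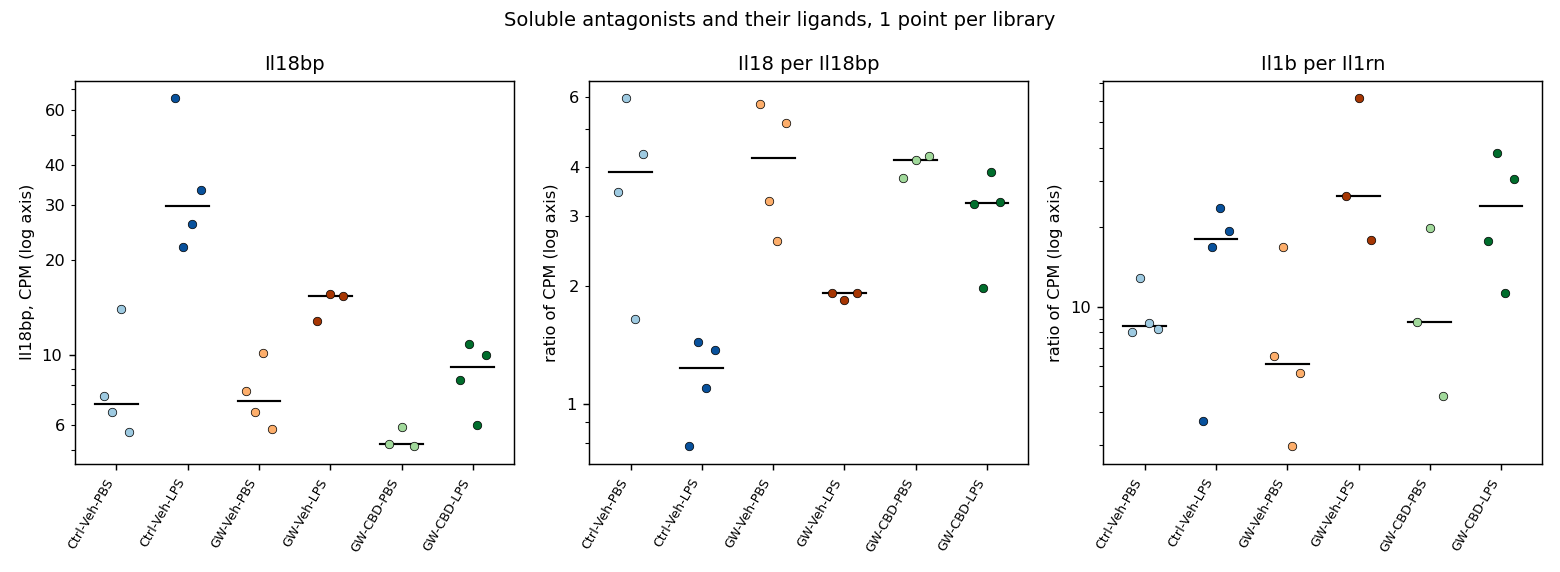
Il18bp (CPM), the ratio of Il18 to Il18bp and the ratio of Il1b to Il1rn in each library (log axes), with a line at each group's median. Il18bp is 22 to 65.2 CPM in Ctrl-Veh-LPS, 12.8 to 15.6 in GW-Veh-LPS and 5.99 to 10.8 in GW-CBD-LPS. The differences of GW-Veh-LPS from the other LPS groups did not pass in edgeR. Il18 per Il18bp is lowest in Ctrl-Veh-LPS.

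For other genes of the pathway (further ligands, decoys and receptors, signalling proteins, inflammasome sensors, adaptors, caspases and pore proteins), 53 symbols were listed. Some of these are old and new names of 1 gene, such as Il1f9 and Il36g. Of the 53 symbols 48 were in the table, and 40 passed the filter. In control mice LPS raised 7 and lowered 3 of the 40, where 10.8% of all genes were called higher and 9.62% lower. The largest change relative to its error was that of Myd88, the adaptor of IL-1, IL-18 and most Toll-like receptors. Myd88 was 136, 134, 138 and 118 CPM with PBS and 282, 242, 250 and 260 with LPS, a log2 fold change of 0.98 ± 0.09 (adjusted p = 4.78e-07, edgeR). Gbp2 and Gbp3, interferon-induced GTPases that aid inflammasome activation by bacteria, rose by 1.37 ± 0.21 and 1.02 ± 0.20 on the log2 scale, and P2rx4, an ATP-gated channel, by 0.43 ± 0.09. Gsdme, a pore-forming gasdermin, had a log2 fold change of -1.25 ± 0.27 and Nek7, the kinase that NLRP3 binds, of -0.74 ± 0.16, so a partner of NLRP3 fell while Nlrp3 itself did not pass. Gsdme was -0.80 without replicate 3 of Ctrl-Veh-PBS, whose 38.8 CPM was the highest of its group (median 16.3), and it still passed (adjusted p = 0.00691). The other calls were Casp4, Naip2 and Irak4 upward and Txnip downward (-0.41 ± 0.12), and those of Irak4 and Txnip failed in 4 and 2 of 8 leave-one-out fits. Txnip was -0.27 (adjusted p = 0.161) without the 3 set-apart libraries. Il18rap, the signalling subunit of the IL-18 receptor, was 1.1, 0.701, 13.3 and 0.699 CPM with PBS and 19.6, 21.7, 7.69 and 15.9 with LPS, and the groups overlapped through replicate 3 of Ctrl-Veh-PBS alone. It missed the threshold in edgeR (2.04 ± 0.75, adjusted p = 0.06) and was called by DESeq2 (2.00, adjusted p = 0.0462). In edgeR it was 4.24 (adjusted p = 4.84e-05) without that library and 4.16 (adjusted p = 0.000157) without the 3 set-apart libraries.

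In GW mice 6 of the 40 rose with LPS and 1 fell, against 4.45% and 5.07% of all genes. Myd88 was 131, 117, 129 and 135 CPM with PBS and 188, 211 and 223 with LPS (log2 fold change 0.70 ± 0.09, adjusted p = 0.000107, edgeR). Il18rap was 0.63, 1.41, 1.2 and 0.476 CPM with PBS and 7.13, 34.1 and 12.5 with LPS (log2 fold change 4.26 ± 0.86, adjusted p = 0.00376). Irak1 (0.71 ± 0.15) and Irak4 (0.50 ± 0.12), kinases downstream of MyD88, rose, as did Naip2 and Gbp3, and Casp8, an apoptotic and inflammatory caspase, had a log2 fold change of -0.43 ± 0.11. Leaving out single libraries ended the calls of Irak4, Naip2, Gbp3 and Casp8 in 2 to 4 of 7 fits each, and kept those of Myd88, Il18rap and Irak1. Without the 3 set-apart libraries Naip2 was 0.49 (adjusted p = 0.0861) and Gbp3 0.66 (adjusted p = 0.0965). In CBD-treated mice edgeR and DESeq2 each called 0 of the 40. Of all genes, edgeR called 0.393% higher and 0.0242% lower there. An unadjusted p under 0.05 was found for 4 of the 40, and for 11% of all genes.

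CBD in mice given LPS lowered 2 of the 40 (1.24% of all genes were called lower), both of which had risen with LPS in GW mice, in a comparison that shares the GW-Veh-LPS libraries. Myd88 was 123, 128, 129 and 132 CPM in GW-CBD-LPS, below every GW-Veh-LPS library and within the range of the PBS groups. Its log2 fold change was -0.70 ± 0.09 (adjusted p = 0.00106, edgeR) and it passed with every single library left out, though not in the fit of the compared groups alone (-0.69, adjusted p = 0.0582), where no gene passed. Il18rap was 1.18, 2.89, 0.763 and 2.22 CPM in GW-CBD-LPS (log2 fold change -3.34 ± 0.82, adjusted p = 0.0336), and this call failed in 5 of 7 leave-one-out fits (those without replicates 3 or 4 of GW-Veh-LPS or replicates 1, 3 or 4 of GW-CBD-LPS). In the remaining 5 comparisons edgeR called 0 of the 40, with 3 to 8 at an unadjusted p under 0.05. Of all genes, 0% to 0.0181% were called in these and 3.75% to 15.3% had such a p. DESeq2 called Gbp2 and Myd88 for exposure with LPS (150 genes in all), and Il18rap and Myd88 for the interaction of CBD and LPS (380 in all).

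**Figure D5:**
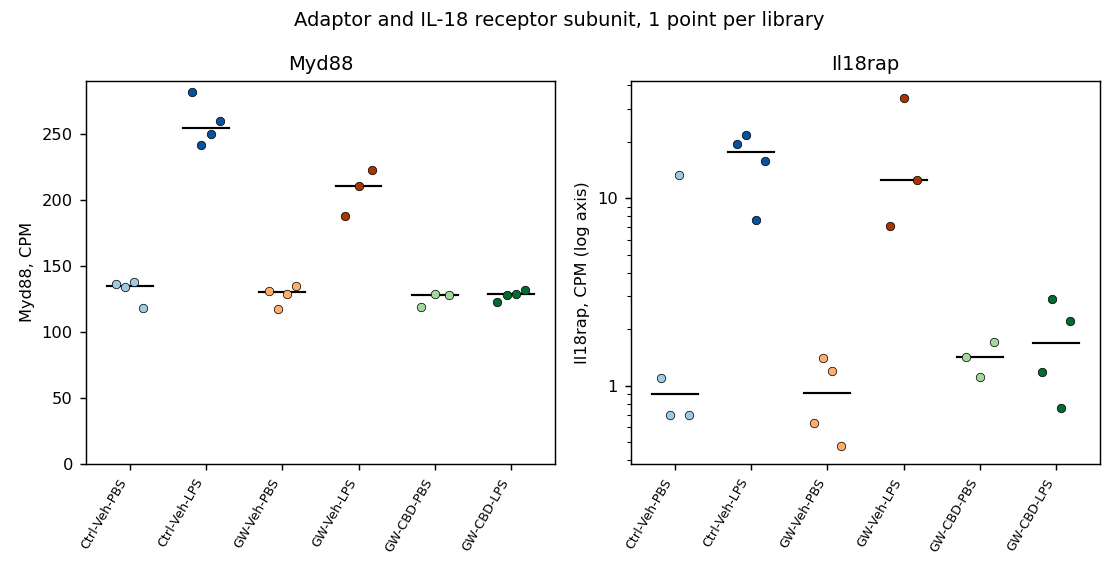
Myd88 (CPM, axis from 0) and Il18rap (CPM, log axis) in each library of the 6 groups, with a line at each group's median. Myd88 is 242 to 282 CPM in Ctrl-Veh-LPS, 188 to 223 in GW-Veh-LPS and 117 to 138 in the 4 other groups.

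The genes whose pattern over the 22 libraries was most like that of 3 members were listed by Pearson's r of log2 CPM among 9202 genes, as a description, since the libraries share groups, depth and cell makeup. For Il1b these were Tnf (0.888), Ier2 (0.883), Cxcl2 (0.881), Osm (0.872) and Metrnl (0.868), among them the cytokines TNF and oncostatin M and a chemokine for neutrophils. For Il1r2 they were Jdp2 (0.971), Cd300lf (0.964), Pla2g7 (0.953), Nfil3 (0.952) and Ms4a4a (0.948), which include 2 transcription factors of the bZIP class and 2 surface proteins of myeloid cells. Without the 3 set-apart libraries these 5 values were 0.939 to 0.972, while those for Il1b were 0.899 for Tnf, 0.905 for Ier2, 0.807 for Cxcl2, 0.796 for Osm and 0.792 for Metrnl. For Casp1 they were C1qb (0.949), Mrps17 (0.947), Mtx1 (0.945), Polr1c (0.941) and Mrpl2 (0.939), of which C1qb is a complement subunit made by microglia and Mrps17 and Mrpl2 are proteins of the mitochondrial ribosome.

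On GRCm38, with GENCODE M21, Il1a spans chr2:129299610-129309972 and Il1b chr2:129364570-129371139, both on the minus strand, and Il1rn chr2:24336853-24351494. Il1r2 spans chr1:40074079-40125231, beside Il1r1 at chr1:40225080-40317257. Il1rap lies at chr16:26581704-26730117, Il18 at chr9:50554827-50581840, Casp1 at chr9:5298517-5307265, Nlrp3 at chr11:59541568-59566956 and Il18bp, on the minus strand, at chr7:102014885-102018690. Genes on the opposite strand share 11.2% of the exon bases of Il1a (Gm14023), 4.86% of Il1rap (Gm20319) and 1.31% of Il1b (Il1bos), and reads there could not be told apart if strand was not used in counting.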

How the data were processed

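The deposited table holds raw counts per gene for 22 libraries, which the authors made from reads aligned to GRCm38 (mm10), per the series' design text and the submitters' processing notes. Libraries were poly(A)-enriched and stranded, per the labels' protocols. For the aligner, counting tool, strand setting and annotation, nothing is given in the sources used here. Columns of no sample numbered 0. Replicate numbers are those of the library names.

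The members and lists were chosen with earlier results of these data known. edgeR 4.0.16 (R 4.3.3) was fitted to all 22 libraries with 6 group means, TMM scaling and filterByExpr (16554 genes), and 9 contrasts were tested by quasi-likelihood, with Benjamini-Hochberg adjustment over all genes and a threshold of 0.05. SE is the absolute log2 fold change over the square root of F. The common biological coefficient of variation was 0.352. All 10 members are named, up to 6 called genes of the pathway list per comparison by smallest p, and the remaining calls too. Likeness used log2 CPM with a prior count of 2 and genes averaging 5 CPM or more. Levels per kb used the union of GENCODE exons. Pairs of libraries of 1 group differed by 11.7 to 234 times sampling noise (chi-square per degree of freedom), so all counted separately.

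Alternatives were RLE size factors, no filter, DESeq2 1.42.0, a replicate block, leave-one-out fits over libraries and fits restricted to the compared groups. A fit without the 3 libraries rich in neutrophil markers was chosen after seeing the data. The fitting was tested on simulated data. Promoter windows were those of RefSeq, and figures were drawn with matplotlib 3.10.9.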

Additional observations from a re-analysis of the deposited data

Results flagged for a closer look

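Of 40 sets of 4 libraries tested for a value far from the others (10 members in 4 groups), 9 had one, where chance gives about 1 in 20. In replicate 3 of Ctrl-Veh-PBS this was Il1b at 300 CPM (the others at 43.8 to 66.9), Il1rn at 34.5 CPM (4.86 to 8.14) and Il1r2 at 30.7 CPM (0.457 to 1.03). In replicate 1 of Ctrl-Veh-LPS it was Il1b at 487 CPM (145 to 184) and Il1rn at 131 CPM (6.58 to 10.9). These are the 2 libraries with the highest neutrophil marker sums, 25353 and 2523 CPM, and the part of those cells in the values was not tested.

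The other 4 lay in libraries without raised neutrophil markers. Replicate 2 of Ctrl-Veh-PBS was high for both Il18 (39.2 CPM, the others 23.1 to 25.4) and Casp1 (58.3 CPM, 46.8 to 47.8). Il1r1 was 7.66 CPM in replicate 2 of Ctrl-Veh-LPS (3.4 to 4.1), and Nlrp3 was 28.9 CPM in replicate 2 of GW-CBD-LPS (17 to 19).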

How the results depend on the processing

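Of 134 alternative counts of members called, 118 stayed within 1.5 times the main count. Most of the 134 belong to comparisons with 0 members called in the main fit, where 0 again counted as unchanged. For LPS in control mice (5 members) the fit of the compared groups alone called 2, the fit without the 3 set-apart libraries 3, and fits leaving out 1 library 3 to 5. For LPS in GW mice (1 member) these were 2, 3 and 0 to 3, and DESeq2 called 2. For CBD with LPS (1 member) the compared groups alone called 0, and fits leaving out 1 library 0 to 2. DESeq2 called 1 member for exposure with LPS. In the interaction of CBD and LPS it called 2, and fits leaving out 1 library called 0 to 1. With the replicate block, LPS in GW mice called 0 members, and Il1r2 there was 4.32 (adjusted p = 0.0655). It changed no other call of a member. Il18rap became -2.89 (adjusted p = 0.0941) for CBD with LPS and 2.71 (adjusted p = 0.0286) for LPS in control mice. Over all genes, exposure with LPS called 0 in edgeR but 5 with no filter and 30 and 75 without replicate 2 or 3 of Ctrl-Veh-LPS, and CBD without LPS called 1 with the compared groups alone. Same-numbered libraries had correlations of -0.285 to 0.145 over all genes (4 of 23 pairs over 0.1), so no pairing by number was seen at that level. The labels do not say what a number marks, and sharing limited to some genes was not tested. Signs reversed only when 1 library was left out: Il1rn for LPS in control mice ranged from -0.67 to 2.60, Il1rap from -0.05 to 0.23, and, for LPS in CBD-treated mice, Il1b from -0.08 to 1.06 and Il1r2 from -0.90 to 0.10. The causes were not tested. Depth limits Il1r2 in GW-CBD-LPS (10 to 19 counts per library) and Il1r1, while 3 or 4 libraries a group limit every test.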
